A study of Mus musculus with 9 samples.

Results

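The tetraspanin genes *Cd9*, *Cd37*, *Cd53*, *Cd63*, *Cd81*, *Cd82*, *Cd151*, *Tspan2*, *Tspan13* and *Tspan14* were followed through the RNA-Seq of 9 libraries from murine Hoxa9 and Meis1 (H9M) leukemia clones. These 10 genes were selected by their gene names out of the 55401 genes of the deposited tables, and all 10 were found. The choice was made with results of the same libraries known, so differences of the members are a description of these libraries and not independent evidence. *Tspan2* is also a gene that the study itself picked out from these samples.

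All cells descended from lineage-negative bone marrow of C57BL/6-Ly5.1 mice that was transduced with a gammaretroviral vector for *Meis1* and *Hoxa9*. Every group also shared a lentiviral vector that carried a combination of fluorescent and surface markers, the color code of a clone (BC-D). A mixture of such clones was transplanted into lethally irradiated C57BL/6J recipients, and thawed splenocytes that were CD45.1+ EGFRt bright cKit+ CD11b dim or negative were purified for each color code. The paper's text describes the sort gate as cKit+ CD11b dim and names no CD11b-negative cells for it. For the pre-malignant group, mouse #15 was taken before leukemia developed and gave 43BC-D, 38BC-D and 33BC-D cells. The de novo expanded group held 38BC-D from mouse #13, 43BC-D from mouse #14 and 33BC-D from mouse #17, all at their leukemic endpoint. Clone 34BC-D from mice #13, #14 and #17 made up the stably expanded group. The pre-malignant state thus comes from 1 mouse and the stably expanded state from 1 clone. De novo expanded and pre-malignant libraries hold the same 3 clones, but their state cannot be told apart from the mouse. Stably and de novo expanded libraries come from the same 3 mice, but their state cannot be told apart from the clone. In stably expanded over pre-malignant, state, mouse and clone cannot be told apart. The labels tie a column of the tables to its group but not to a clone or mouse, so libraries are numbered 1 to 3 within a group and these numbers pair nothing. Age and sex of the mice were not given in the sources used here.

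Tetraspanins are small membrane proteins that cross the membrane several times and expose a small and a large extracellular loop. They act mainly by binding other membrane proteins, such as integrins, immunoglobulin superfamily members and the protease ADAM10, and by gathering them in tetraspanin-enriched microdomains. On blood cells they take part in adhesion, migration and antigen receptor signaling, and several of them mark extracellular vesicles. *Cd37* and *Cd53* are largely restricted to leukocytes, whereas *Cd9*, *Cd63*, *Cd81*, *Cd82* and *Cd151* are found in many tissues.

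Libraries held 10379739 to 15551196 reads on genes. In de novo expanded library 3 the log2 levels of all genes lay farther from those of its group mates (root mean square distance 0.987) than in the other 8 libraries (0.528 to 0.737). The fold changes that change most without this library are given with and without it. It was singled out from these same values, and leaving it out also removes its spread from the test. Adjusted p-values and calls without it are therefore a description and no support for a difference. Olfactory and vomeronasal receptor genes, which these cells should not use, took few reads, and their share was 0.0081% to 0.0179% in pre-malignant, 0.0038% to 0.0118% in de novo expanded and 0.0022% to 0.0079% in stably expanded libraries. The genes behind the sort and the model, *Kit*, *Itgam*, *Ptprc*, *Hoxa9* and *Meis1*, were detected in every library, and none of them was called in any comparison. In stably expanded over pre-malignant, *Itgam*, which encodes CD11b, was higher without overlap but under 2-fold (log2 fold change 0.61; limma, adjusted p = 0.0485). *Kit* had a log2 fold change of -0.30, also without overlap (limma, adjusted p = 0.0795). Their part in the tetraspanin values was not tested.

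Among the 10 tetraspanins, the leukocyte genes *Cd53* and *Cd37* had the highest levels per kilobase of exon. Normalized counts (reads divided by the size factor of the library, here over all 9 libraries) averaged 527 per kilobase for *Cd53* and 495 for *Cd37*. *Cd81* followed at 339, *Cd63* at 327, *Tspan14* at 310 and *Cd82* at 187 normalized counts per kilobase. Levels per kilobase were lower for *Tspan2* (78.0), *Cd151* (52.3) and *Cd9* (26.8), and *Tspan13* was close to absent at 1.99. Some neighbours in this order changed places between libraries. *Cd53* lay above *Cd37* in 6 of 9 libraries, *Cd81* above *Cd63* in 6, *Cd63* above *Tspan14* in 4 and *Tspan2* above *Cd151* in 5. In contrast, *Cd37* exceeded *Cd81*, *Cd82* exceeded *Tspan2* and *Cd9* exceeded *Tspan13* in all 9.

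The order also differed between groups. *Cd63*, a tetraspanin of late endosomes, lysosomes and granules, had rank 5 in the pre-malignant and de novo expanded means and rank 1 in the stably expanded mean. *Cd53* had rank 1 in the first pair of groups and rank 3 in the stably expanded group. Together the 10 genes made up 70.4% to 81.6% of the length-scaled sum over all 31 tetraspanins examined. Their own sum per kilobase was 1942 ± 45.4 (SD, n = 3) in pre-malignant, 2320 ± 421 (SD, n = 3) in de novo expanded and 2773 ± 194 (SD, n = 3) in stably expanded libraries. Within that sum *Cd63* took 7.50% to 9.28% in pre-malignant and 16.2% to 24.4% in stably expanded libraries, and *Cd81* took 8.92% to 10.6% and 15.6% to 16.6%, respectively. The share of *Cd53* was 27.5% to 34.2% in pre-malignant and 12.6% to 22.3% in stably expanded libraries. De novo expanded libraries 1 and 2 held only 2.70% and 2.98% *Cd63*, while library 3 held 24.5%, close to the largest share of the stably expanded group.

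**Figure D1:**
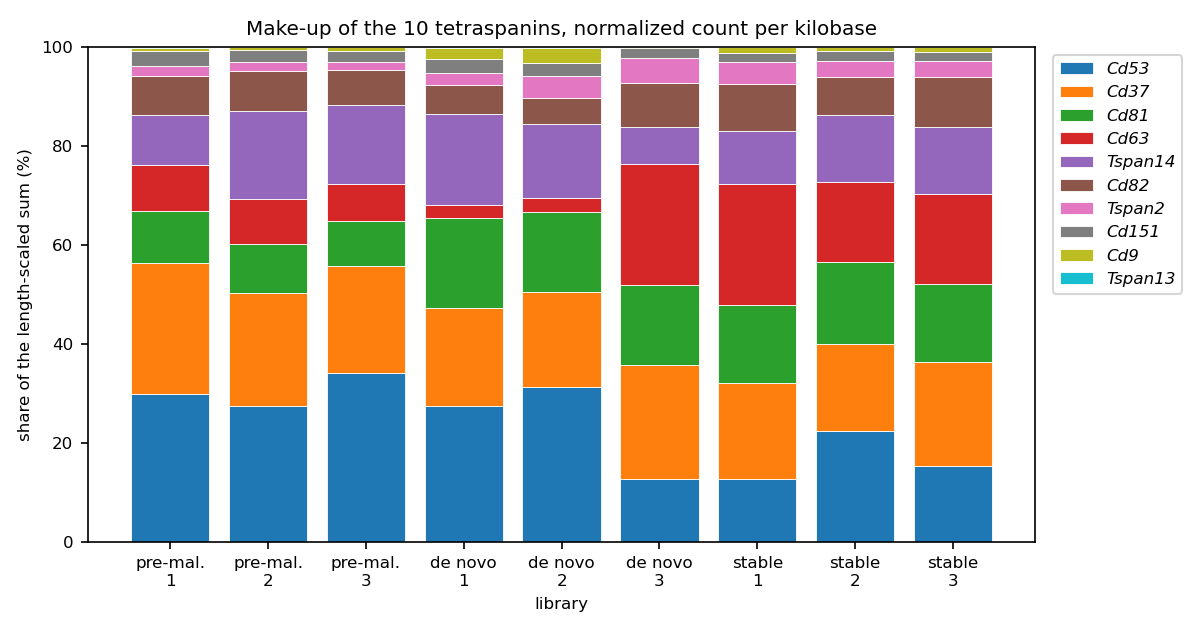
Share of each of the 10 tetraspanins in their summed normalized count per kilobase (y axis, %), 1 bar per library (x axis). *Cd63* (red) fills 24.5% of de novo expanded library 3 but only 2.70% and 2.98% of the other two de novo expanded libraries, and *Cd53* (blue) is at 12.6% in that library.

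**Figure D2:**
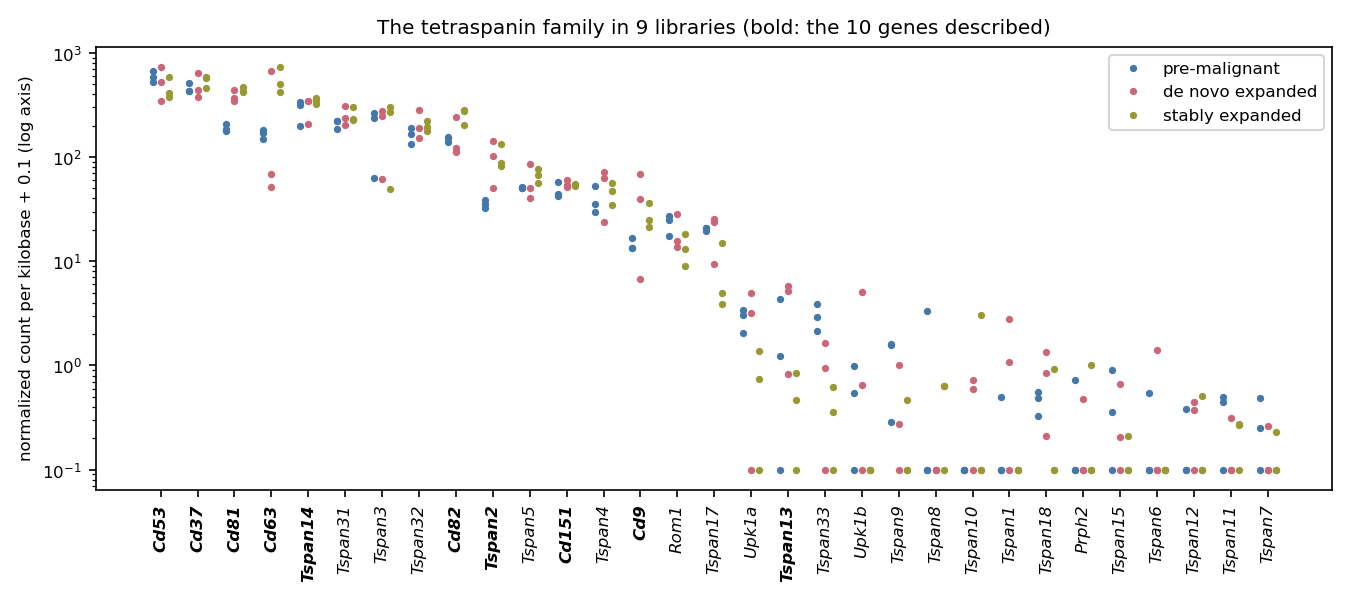
Normalized count per kilobase of exon (y axis, log scale, 0.1 added) of all 31 tetraspanins, 1 point per library colored by group, with genes ordered by their mean and the 10 described genes in bold. *Cd53* and *Cd37* lead, and *Tspan13* is the only one of the 10 that sits among the genes near 0.

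The stably expanded clone differed from the pre-malignant clones in 3 tetraspanins, *Cd81*, *Tspan2* and *Cd63*, all of them higher. *Cd81*, which is best studied in B cells and occurs on most other blood cells too, was the steadiest of the 3. Its gene lies on chromosome 7 at 143052739 to 143067934 of GRCm38.p6, on the plus strand. *Cd81* had 598, 535 and 508 normalized counts in the pre-malignant libraries. The stably expanded libraries held 1353, 1244 and 1223 normalized counts, and the groups did not overlap. The log2 fold change was 1.22 (SE 0.11, 95% interval 0.98 to 1.46), a 2.33-fold higher level (limma, adjusted p = 0.00108). In bulk RNA, a larger share of expressing cells and more RNA per cell cannot be told apart, and this holds for every gene below.

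*Tspan2*, a tetraspanin best known from myelinating oligodendrocytes, lies on chromosome 3 at 102734529 to 102801513. Pre-malignant libraries held 182, 167 and 152 normalized counts of *Tspan2*. Stably expanded libraries held 631, 389 and 420.4, all above the pre-malignant ones, with library 1 the highest of its group. The log2 fold change was 1.49 (SE 0.20), or 2.81-fold (limma, adjusted p = 0.00386).

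*Cd63* is on chromosome 10 at 128900989 to 128912822, on the plus strand. Its normalized counts were 669, 626 and 546 in pre-malignant libraries. They were 2682, 1558 and 1843 in stably expanded libraries, again without overlap. This was the largest difference of the 9 members tested, with a log2 fold change of 1.69 (SE 0.18), or 3.23-fold (limma, adjusted p = 0.00247).

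*Cd82*, also called KAI1 and known as a metastasis suppressor in solid tumors, lies on chromosome 2 at 93419111 to 93463140. It had 466, 452 and 422 normalized counts in pre-malignant libraries and 855, 604 and 826 in stably expanded libraries, with no overlap. The log2 fold change of 0.75 (SE 0.15) passed the test but not the limit of 2-fold (limma, adjusted p = 0.0143), and the adjusted p ranged from 0.00542 to 0.0556 when 1 library was left out.

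Of the 10 members, 9 passed the filter of a mean of at least 10 normalized counts, and 3 of these 9 were called at an adjusted p under 0.05 and at least 2-fold. In this comparison 2.75% of all 13968 tested genes were called, and 1.2% were called as higher. At any fold, 4 of 9 members passed the adjusted p, compared with 7.95% of all tested genes, and 6 of 9 had an unadjusted p under 0.05, compared with 25.4%. Overlap between both groups was absent for 5 of 9 members and for 30.7% of all tested genes. The median log2 fold change was 0.75 over the 9 members and 0.0042 over all tested genes. Leaving out any 1 library kept all 3 calls. In a fit of all 9 libraries, where the spread of the de novo expanded group enters, only *Cd81* remained called, with an adjusted p of 0.270 for *Cd63* and 0.0836 for *Tspan2* (limma). When the share of olfactory and vomeronasal receptor reads was added to the model, an alternative chosen after seeing the data, none of the 3 was called (limma, adjusted p = 0.103 for *Cd81*, 0.162 for *Cd63* and 0.248 for *Tspan2*), while their log2 fold changes stayed at 1.26, 1.57 and 1.35.

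**Figure D3:**
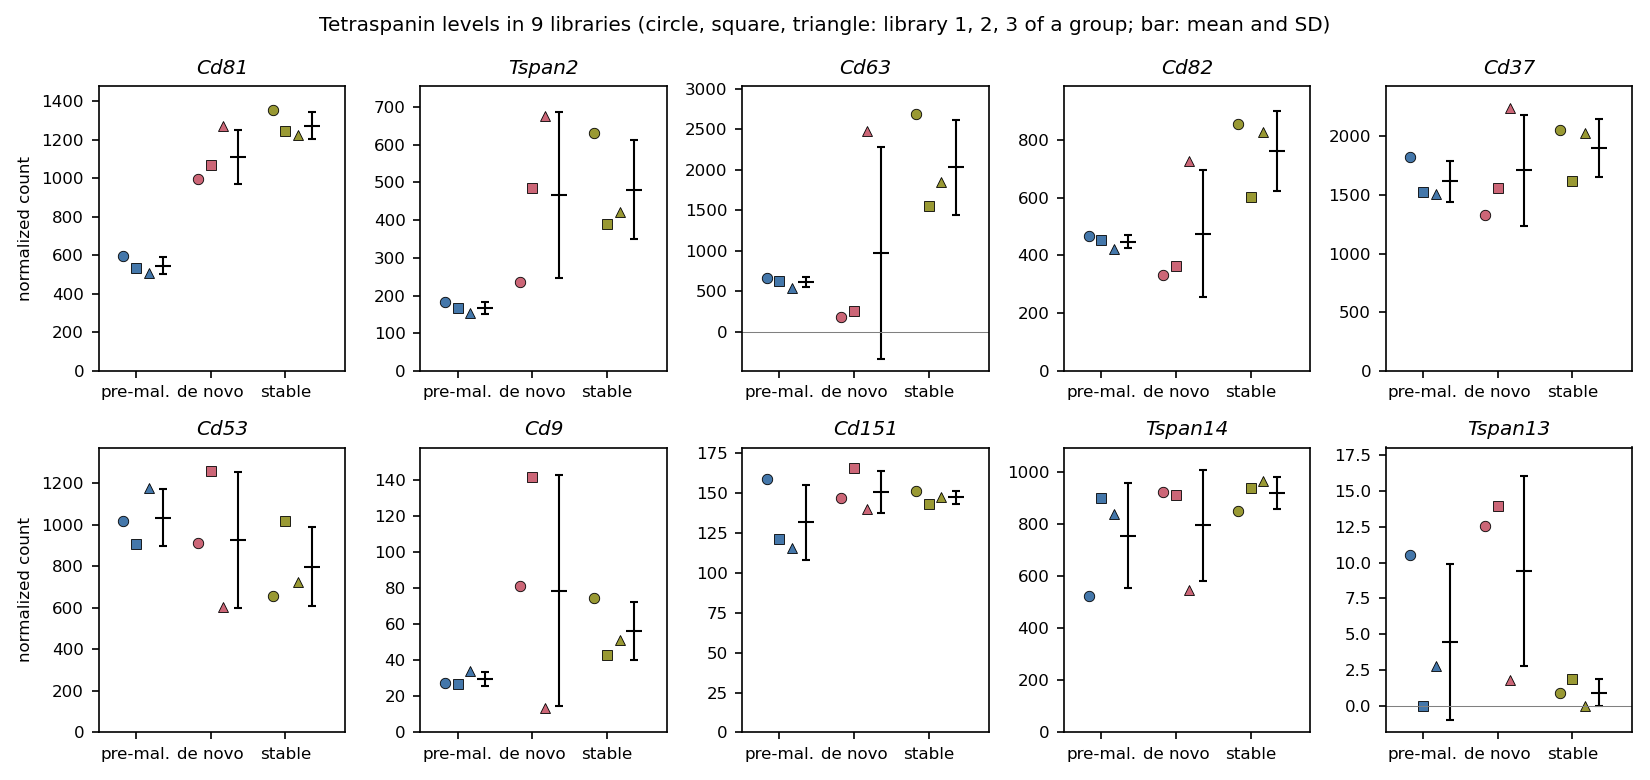
Normalized counts (y axis) of the 10 tetraspanins in the pre-malignant, de novo expanded and stably expanded groups, 1 symbol per library (circle, square and triangle for libraries 1, 2 and 3), with a bar for the mean and SD of 3 libraries. All 6 leukemic libraries lie above the 3 pre-malignant ones for *Cd81* and *Tspan2*, and *Cd63* splits the de novo expanded group into 189 and 253 against 2477.

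For *Cd81* and *Cd63*, the stretch before the start of transcription is shown. These genes had the lowest adjusted p of the tested members in stably expanded over pre-malignant (limma), and their patterns over the libraries differed. Sequences are RefSeq promoter windows on GRCm38.p6, written on the plus strand from 5′ to 3′ and limited to their first 239 bases so that no exon is included. Capitals mark matches to any of the 8 motifs searched on both strands, which are given here by name and letters. They were TATAAA for the TATA box, the letters CCAAT for the box named after them, GGGCGG for the GC box, TGANTCA for AP-1 proteins, TTGCNNAA for CEBP proteins, CCGGAA for ETS proteins, TGACAG for MEIS1 and CACGTG for the E-box. No 2 of the matches overlap.
Cd81, chr7:143052500-143052738: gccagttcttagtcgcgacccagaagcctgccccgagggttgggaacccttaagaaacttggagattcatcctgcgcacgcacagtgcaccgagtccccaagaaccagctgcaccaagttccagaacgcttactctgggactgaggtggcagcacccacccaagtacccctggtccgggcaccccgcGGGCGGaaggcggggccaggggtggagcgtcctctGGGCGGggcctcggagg
Cd63, chr10:128909095-128909333: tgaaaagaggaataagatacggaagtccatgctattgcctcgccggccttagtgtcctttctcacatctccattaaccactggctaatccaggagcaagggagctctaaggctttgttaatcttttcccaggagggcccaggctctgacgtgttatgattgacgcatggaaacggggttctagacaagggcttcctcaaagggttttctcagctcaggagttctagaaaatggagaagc
The *Cd81* window ends directly before the first exon and holds 2 GC box matches, a motif found in 31.2% of the 32851 RefSeq windows of this length. The *Cd63* window belongs to a start downstream of the one in the deposited annotation, within an intron there, and holds none of the 8 motifs. *Tspan2* has 1 ETS match in its window (11.1% of all windows), which is not printed because it overlaps an exon of the deposited annotation. These matches describe letters only.

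Against the pre-malignant clones, the de novo expanded clones had higher values of *Cd81* and *Tspan2*, but no tetraspanin was called. *Cd81* had 997, 1068 and 1269.9 normalized counts in de novo expanded libraries against at most 598 before malignancy. The log2 fold change was 1.04 (SE 0.13), with an unadjusted p of 7.88e-05 and an adjusted p of 0.186 in limma. *Tspan2* had 237, 485 and 676 normalized counts against at most 182, with a log2 fold change of 1.37 (SE 0.36; limma, unadjusted p = 0.00568, adjusted p = 0.366) and of 1.04 without library 3 (limma, adjusted p = 0.0588). The de novo expanded libraries of *Tspan2* spread more widely than the pre-malignant ones, but the groups did not overlap for either gene.

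In this comparison 0 of 9 members and 0.0% of all 14195 tested genes were called by limma. At an unadjusted p under 0.05, 2 members (*Cd81* and *Tspan2*) and 11.3% of all genes passed. These were also the 2 of 9 members without overlap between groups, compared with 19.1% of all genes. edgeR called no member, and DESeq2 on the recovered reads called *Cd81* and *Tspan2* (adjusted p = 8.41e-05 and 0.00778) among 42 genes. The fit of all 9 libraries called *Cd81* (log2 fold change 1.02; limma, adjusted p = 0.0233) among 5 genes.

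*Cd63* was split within the de novo expanded group. Libraries 1 and 2 held 189 and 253 normalized counts, below each pre-malignant library, while library 3 held 2477, within the range of the stably expanded clone. The mean log2 fold change of -0.29 (SE 0.87; limma, adjusted p = 0.922) therefore describes no single library. Without library 3 it was -1.46 (limma, adjusted p = 0.00178), and without library 1 or library 2 it was 0.39 or 0.18. The small adjusted p without library 3 follows a choice made from these values and is no support. *Cd9*, a tetraspanin of platelets, megakaryocytes and early progenitors, showed the opposite split. Its pre-malignant libraries held 27.3, 27.0 and 34.2 normalized counts. De novo expanded libraries 1 and 2 were higher with 80.9 and 141, and library 3 was the lowest of all 9 with 13.5. The log2 fold change of *Cd9* was 0.89 (SE 0.78; limma, adjusted p = 0.688) and 1.85 without library 3 (limma, adjusted p = 0.0234). Without that library, *Cd63* and *Cd9* were the 2 members called, among 214 genes, and *Cd81* kept a difference just under 2-fold (log2 fold change 0.93; limma, adjusted p = 0.00431).

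No tetraspanin was called between the stably and the de novo expanded clones. The largest difference was that of *Cd63*, with a log2 fold change of 2.00 (SE 0.89, 95% interval -0.07 to 4.08; limma, adjusted p = 0.891), and the groups overlapped because of de novo expanded library 3. *Cd82* had 333 and 364 normalized counts in de novo expanded libraries 1 and 2 but 728 in library 3, against 604 to 855 in stably expanded libraries. Its log2 fold change was 0.76 (SE 0.31; limma, unadjusted p = 0.0412, adjusted p = 0.891). *Cd81* differed little between the leukemic groups (log2 fold change 0.20, 95% interval -0.09 to 0.49), and the interval for *Tspan2* ran from -0.76 to 1.03 around 0.14.

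Here 0 of 9 members were called by limma, compared with 1 gene or 0.00727% of 13758 tested genes. At an unadjusted p under 0.05, *Cd82* alone of the 9 members passed, compared with 4.83% of all genes, and neither edgeR nor DESeq2 called a member. No member was free of overlap between groups, compared with 9.61% of all genes. Without de novo expanded library 3, 508 genes were called, among them *Cd63* with a log2 fold change of 3.17 (limma, adjusted p = 3.63e-04) and *Cd82* with 1.11 (limma, adjusted p = 0.00802). Both comparisons with the pre-malignant group share its 3 libraries, and both comparisons with a leukemic group share that group's libraries, so values of 1 gene in different comparisons are not independent.

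**Figure D4:**
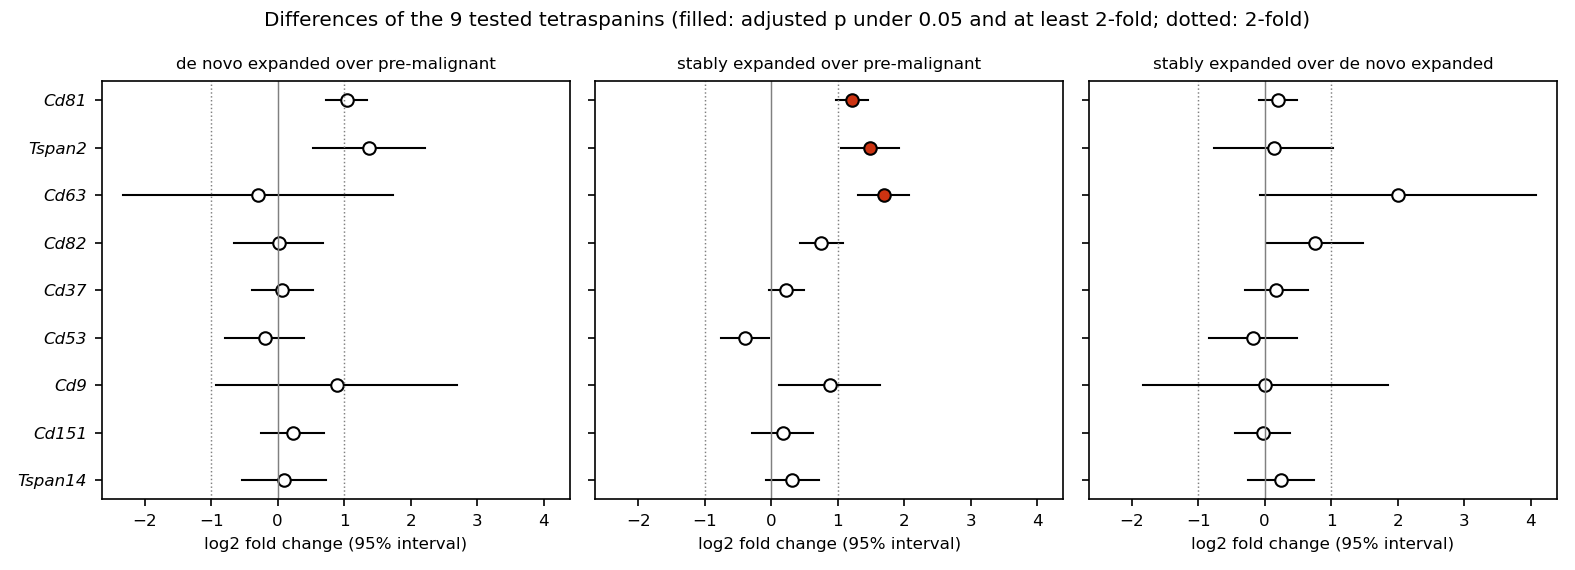
Log2 fold change (x axis) of the 9 tested tetraspanins in the 3 pairwise comparisons, with 95% intervals from limma, and filled points for genes called at an adjusted p under 0.05 and at least 2-fold. Only *Cd81*, *Tspan2* and *Cd63* in stably expanded over pre-malignant are filled, and *Cd63* and *Cd9* have the widest intervals wherever de novo expanded libraries take part.

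None of the remaining members was called in stably expanded over pre-malignant. *Cd37*, whose product restrains signaling in lymphocytes and myeloid cells, lies on chromosome 7 at 45233632 to 45239115. It had 1819.7, 1525 and 1507 normalized counts in pre-malignant, 1332, 1557 and 2240.3 in de novo expanded and 2055, 1618 and 2025 in stably expanded libraries. The groups overlapped, and the log2 fold change of stably expanded over pre-malignant was 0.23 (95% interval -0.04 to 0.50).

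*Cd53*, a pan-leukocyte tetraspanin on chromosome 3 at 106759921 to 106790149, was the only tested member with a negative log2 fold change in stably expanded over pre-malignant. Its normalized counts were 1019, 904 and 1177 in pre-malignant, 911, 1259.7 and 604 in de novo expanded and 655, 1015 and 724 in stably expanded libraries. The lowest value was again that of de novo expanded library 3, and the log2 fold change of -0.39 (SE 0.17) did not pass the test (limma, adjusted p = 0.170).

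*Cd9*, on chromosome 6 at 125460266 to 125494791, held 74.2, 43.2 and 51.0 normalized counts in stably expanded libraries, all above the pre-malignant ones. The log2 fold change was 0.88 (SE 0.35; limma, adjusted p = 0.142). *Cd151*, a partner of laminin-binding integrins on chromosome 7 at 141467392 to 141471473, was the most even member, with 115 to 166 normalized counts over all 9 libraries. Its 95% interval for stably expanded over pre-malignant was -0.28 to 0.63 on the log2 scale.

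*Tspan14*, on chromosome 14 at 40906445 to 40966807, belongs to the TspanC8 tetraspanins that bring ADAM10 to the cell surface. It had 525, 901 and 838 normalized counts in pre-malignant, 922, 913 and 548 in de novo expanded and 848, 939 and 966 in stably expanded libraries. A single low library stood out in each of the first pair of groups, and the log2 fold change of stably expanded over pre-malignant was 0.32 (SE 0.18; limma, adjusted p = 0.300). *Tspan13*, on chromosome 12 at 36014557 to 36042500, stayed under the filter. Its reads numbered 10, 0 and 3 in pre-malignant, 11, 16 and 2 in de novo expanded and 1, 2 and 0 in stably expanded libraries, where a count of 0 allows up to 3 reads. No fold is given, since a difference was not detectable at this depth with counts this low.

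A list of 5 genes around primary granules was read beside the tetraspanins. Neutrophil precursors make these granules at the promyelocyte stage, and the granule membrane contains CD63. *Elane*, neutrophil elastase, had 11369, 11323 and 10973 normalized counts in pre-malignant libraries. It had 2019, 3616 and 29662 in de novo expanded libraries and 24074, 17314 and 17179.9 in stably expanded libraries. *Mpo*, myeloperoxidase, was at 22355 and 36037 in de novo expanded libraries 1 and 2 and at 218137 in library 3, against 85054 to 95650.5 before malignancy. Both genes therefore divided the de novo expanded libraries in the way *Cd63* did. *Prtn3* (3174, 4018 and 12904 normalized counts) and *Ms4a3* (1025, 894 and 3986) did so too. *Ctsg* did not, with 12513, 12684 and 16547 in de novo expanded libraries against 7477, 12677 and 12311 before malignancy. Of the 5 listed genes, only *Ms4a3* was called in stably expanded over pre-malignant (log2 fold change 1.26; limma, adjusted p = 0.00346), compared with 2.75% of all tested genes. All 5 were higher without overlap between groups, and 30.7% of all genes did not overlap. In limma, 5 of 5 had an unadjusted p under 0.05, compared with 25.4% of all genes. At any fold, 3 of 5 passed the adjusted p, compared with 7.95%. None of *Elane*, *Mpo*, *Prtn3* and *Ctsg* was called. *Elane* and *Ctsg* passed the adjusted p but were under 2-fold (log2 fold changes 0.78 and 0.76). *Mpo* and *Prtn3* did not pass it (limma, adjusted p = 0.152 and 0.0706). Whether the granule program or the composition of library 3 has a part in the values of *Cd63* was not tested.

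**Figure D5:**
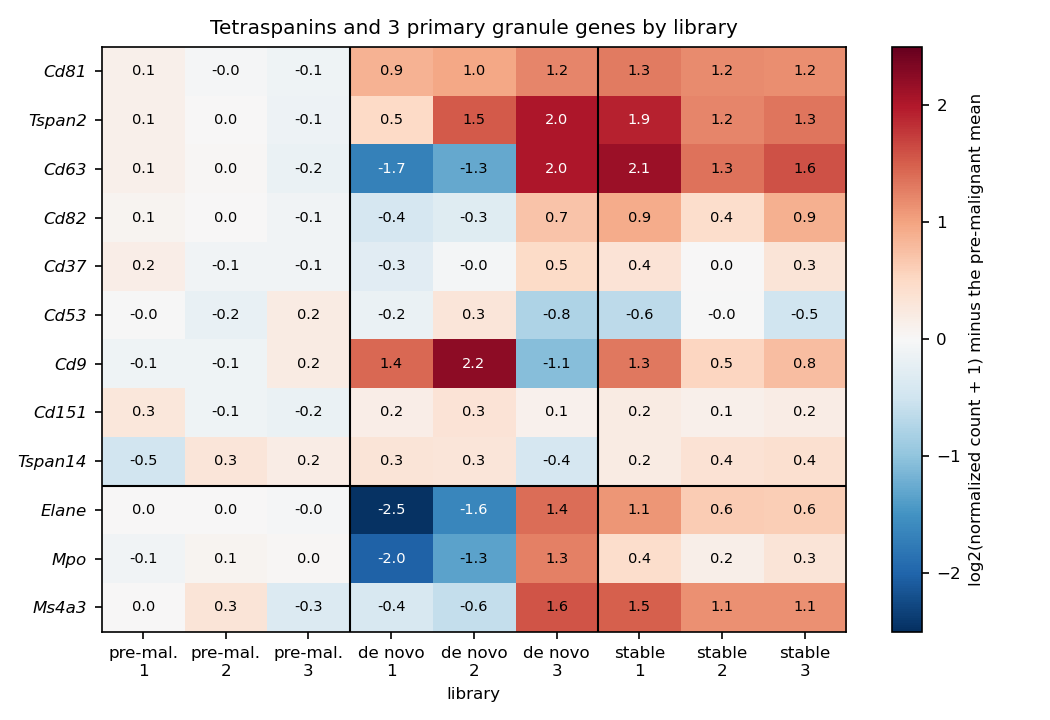
Log2(normalized count + 1) minus the mean of the 3 pre-malignant libraries (color and printed value) for 9 tetraspanins and 3 genes of the primary granule list (rows) in each library (columns). *Cd63*, *Elane* and *Mpo* are low in de novo expanded libraries 1 and 2 and high in library 3, while *Cd81* is high in all 6 leukemic libraries.

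Markers of other cells were examined because B cells, platelets and macrophages carry tetraspanins of their own. The summed normalized counts of 11 B cell genes were 296 to 382 in pre-malignant, 105 to 216 in de novo expanded and 169 to 286 in stably expanded libraries. In stably expanded over pre-malignant, 8 of the 11 were tested, and *Ms4a1*, *Pax5* and *Ebf1* were called, all lower (log2 fold changes -2.29, -3.04 and -2.89). Of all tested genes, 2.75% were called in this comparison. The stably expanded means of these called genes were only 6.39, 4.51 and 2.98 normalized counts, against 32.6, 43.2 and 30.3 in pre-malignant libraries. They passed the filter through the pre-malignant group, which favoured a lower value, and their fold changes rest on few reads. *Cd79b* was the 1 tested B cell gene with a positive difference (log2 fold change 0.99; limma, adjusted p = 0.0796), with 192 ± 58.6 against 97.6 ± 36.2 normalized counts (SD, n = 3 each), the largest part of the stably expanded sum. The part of such cells in the values of *Cd81* was not tested. Of 10 macrophage genes 5 were tested, 3 with a positive and 2 with a negative log2 fold change, and *Csf1r* was called, also lower (log2 fold change -1.71; limma, adjusted p = 0.00412). *Vcam1* had the largest positive difference (log2 fold change 2.03; limma, adjusted p = 0.0729). Its reads numbered 1322, 181 and 201 in pre-malignant, 14, 105 and 2554 in de novo expanded and 2162, 1548 and 803 in stably expanded libraries. The list's sum was 2923 to 4087 in pre-malignant, 1484 to 3629 in de novo expanded and 2916 to 3669 in stably expanded libraries. Of its other genes, *Adgre1* had 626 to 1466 reads in the 9 libraries, *Slc40a1* 5 to 152 and *Mrc1* at most 30. *C1qa*, *C1qb*, *C1qc*, *Cd5l* and *Marco* had at most 13 reads in any library. In the platelet and megakaryocyte list *Ppbp*, *Gp1bb* and *Treml1* had 0 reads in all 9 libraries, *Pf4* had at most 4, and neither of the 2 genes that passed the filter was called. The list summed to 836 to 897 in pre-malignant, 417 to 901 in de novo expanded and 502 to 736 in stably expanded libraries, most of it *Itgb3*. Erythroid genes summed to 339 to 776, 46.0 to 277 and 67.2 to 451 in the same order, with no call among the 6 or 7 genes tested per comparison. T cell genes stayed at 49.9 to 121 over the 9 libraries, with no call among 2 or 3 tested genes. Basophil and mast cell genes stayed at 458 to 920, with no call among 4 tested genes. *Gata2* was the largest part of that sum in every library (238 to 919 reads). *Mcpt8* (37 to 121 reads), *Ms4a2* (15 to 85) and *Cpa3* (2 to 152) were also detected in every library, while *Fcer1a*, *Prss34*, *Cma1* and *Tpsb2* had at most 7 reads.

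Of the 21 other tetraspanins, 7 passed the filter and none was called in any comparison. In stably expanded over pre-malignant, 5 of these 7 had a positive and 2 a negative log2 fold change, with a median of 0.24. The 3 with the highest mean were *Tspan32*, *Tspan3* and *Tspan31*. *Tspan32* is known mainly from blood cells. Its normalized counts were 1188, 1042 and 825 in pre-malignant, 944, 1172 and 1749.7 in de novo expanded and 1219, 1105 and 1369 in stably expanded libraries. *Tspan31* was at 411 to 684 normalized counts throughout. The TspanC8 group of 6, to which *Tspan14* belongs, had 3 tested members and no call, and *Tspan17* of this group had the largest difference among the 7 tested genes in stably expanded over pre-malignant (log2 fold change -1.54, SE 0.53; limma, unadjusted p = 0.0150), which missed the adjusted limit. *Tspan33*, also of this group, stayed under the filter, with 10, 21 and 16 reads in pre-malignant, 7, 5 and 0 in de novo expanded and 3, 0 and 1 in stably expanded libraries.

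Among 22 partner genes, which encode proteins that bind tetraspanins or share their microdomains, 17 were tested against the pre-malignant group and 16 between the leukemic groups. Only *Ifitm3*, an interferon-induced antiviral membrane protein, was called. It was lower in stably expanded libraries, with 57.0, 53.3 and 71.2 normalized counts against 147, 163 and 228 in pre-malignant libraries (log2 fold change -1.54, SE 0.25; limma, adjusted p = 0.00834). In this comparison 2.75% of all tested genes were called. Groups did not overlap for 10 of 17 partners and 30.7% of all genes, and 10 of 17 and 25.4% had an unadjusted p under 0.05 (limma). The integrin chain *Itgb2* was higher without reaching 2-fold, with 5515, 3626 and 3856 against 2332, 2294 and 2238 normalized counts (log2 fold change 0.90; limma, adjusted p = 0.00679). *Itgb1* and *Adam10* had small positive differences (log2 fold change 0.32 and 0.34; limma, adjusted p = 0.0453 and 0.0485). The 3 partners with the highest mean were *Cd47*, *Itga4* and *Ptprc*, with 7168, 5175 and 4608 normalized counts, and none of them passed the adjusted p in any comparison. Of 16 genes for multivesicular bodies, exosomes and lysosomes, 15 were tested and none was called. In stably expanded over pre-malignant, the lysosomal membrane gene *Lamp2* (log2 fold change 0.55; limma, adjusted p = 0.0116) and the vesicle docking GTPase *Rab27a* (0.33; adjusted p = 0.0445) were higher and the sorting gene *Hgs* was lower (-0.41; adjusted p = 0.0348), each under 2-fold.

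The genes whose levels most resembled the 3 called tetraspanins were identified by Pearson's r of log2(normalized count + 1) over the 9 libraries among 13960 genes, as a description without a test, since the libraries form groups. For *Cd63* these were *Tmx4* (r = 0.9956), *B4galt6* (r = 0.9948) and the granulocyte transcription factor *Gfi1* (r = 0.9939). *Gfi1* had 1005 and 1269 normalized counts in de novo expanded libraries 1 and 2 and 4296 in library 3. For *Cd81* they were *Mybl2* (r = 0.9654), *Cox6c* (r = 0.9629) and *Rdx* (r = 0.9616). For *Tspan2* they were *Chst15* (r = 0.9775), *Iqgap1* (r = 0.9603) and *Psph* (r = 0.9542). Among the tetraspanins themselves, *Cd63* lay closest to *Cd82* (r = 0.969) and *Cd81* to *Tspan2* (r = 0.922). In contrast, *Cd53* ran against *Cd82* (r = -0.79), *Cd37* (r = -0.76) and *Cd63* (r = -0.74). Without de novo expanded library 3, r was 0.995, 0.994 and 0.993 for *Cd63* with *Tmx4*, *B4galt6* and *Gfi1*, 0.968 with *Cd82* and -0.672 with *Cd53*. These coefficients rest on few points in 3 groups.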

How the data were processed

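Splenocytes of 9 sorted clone samples were sequenced from total RNA (SMARTer Stranded Total RNA-Seq Pico kit, NextSeq 550). Per the paper, the authors processed reads with nf-core/rnaseq (Trim Galore 0.6.4, STAR 2.6.1d and featureCounts 1.6.4 in the submitters' processing notes) on GRCm38.p6 with a GENCODE annotation and normalized them with DESeq2. Outlier replacement, outlier filtering and independent filtering were off. The strand setting of the counting is not given in the sources used here. The deposited values are a signal, read counts that the authors divided by size factors over the 6 libraries of each of 3 pairwise tables. The tables also hold the authors' means, fold changes, Wald statistics and p-values of their DESeq2 test, which were not used.

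Here, multiplying out the size factors returned whole reads for 100.0% of nonzero values (within 0.05 reads or 1e-06 of the value). Levels in the text were rescaled to common median-of-ratios size factors over 9 libraries, and fold changes come from the pairwise tables. Main test: limma 3.58.1 (R 4.3.3) on log2(normalized count + 1) with an intensity trend in the empirical Bayes step, two-sided, on genes with a mean of at least 10, Benjamini-Hochberg adjusted over all genes tested. Fold changes on this scale understate those of low genes. A call needed an adjusted p under 0.05 and 2-fold. For single genes an exact permutation test of 3 against 3 libraries cannot go below p = 0.1. The pre-malignant libraries share 1 mouse and the stably expanded ones 1 clone, so p-values measure only the spread between these samples. Alternatives were pseudocounts of 0.1 and 5, no filter or a mean of at least 50, centring on the median, edgeR 4.0.16 with TMM, DESeq2 1.42.0, a fit of 9 libraries, no fold limit, leaving out each library and, added after seeing the data, the receptor read share as covariate. Only the main limma fit was also run on simulated data, with independent libraries and no shared mouse or clone. Its outcome is not reported here. Depth of 10379739 to 15551196 reads leaves a floor of 3 reads for a count of 0, for counting error only. Promoters are RefSeq windows (all 10 members matched).

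The 10 genes, the marker lists and the lists of other tetraspanins, partners, vesicle and granule genes were chosen with earlier results of these data known. The text names all 10 members, each list gene called in any comparison, the 3 other tetraspanins and 3 partners with the highest mean, and the 3 genes most like each called member. *Tspan17*, *Elane*, *Mpo*, *Ctsg*, *Itgb2*, *Itgb1*, *Adam10*, *Lamp2*, *Rab27a*, *Hgs*, *Itgb3*, *Tspan33*, *Cd79b* and *Vcam1* were named after their values were seen. This also holds for *Prtn3*, *Gata2* and the marker genes given only with their reads. Some items of the lists and of the cell model are not reported here. Figures were drawn with matplotlib 3.10.9 in Python 3.11.15.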

Additional observations from a re-analysis of the deposited data

How the results depend on the processing

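Between stably expanded and pre-malignant libraries, the number of called tetraspanins stayed at 3 or 4 under all alternatives except the fit of all 9 libraries (1, *Cd81*) and the receptor read covariate (0); it was 3 without any 1 library. Between de novo expanded and pre-malignant libraries it was 0, but 2 with DESeq2, 1 in the 9-library fit and 0 to 2 when 1 library was left out, with 2 only without de novo expanded library 3. Between the leukemic groups it was 0, and 0 to 2 with 1 library left out, again 2 only without that library. Over all genes, calls between stably expanded and pre-malignant libraries numbered 384, 206 to 452 with 1 library left out, 1110 without a fold limit, 6 in the 9-library fit and 5 with the covariate. Between de novo expanded and pre-malignant libraries they numbered 0, and 5 without a filter, 42 with DESeq2, 5 in the 9-library fit and 214 without de novo expanded library 3. Between the leukemic groups they numbered 1, and 2 without a filter, 29 with DESeq2, 2 in the 9-library fit, 0 with the covariate, 2 without de novo expanded library 1, 508 without library 3 and 0 without any 1 stably expanded library.

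No direction changed in stably expanded over pre-malignant. In de novo expanded over pre-malignant, the log2 fold change of *Cd63* turned to 0.66 with edgeR and 0.69 with DESeq2, that of *Cd37* to -0.013 with the covariate, and that of *Cd82* to -0.014 with centring, -0.0051 in the 9-library fit and -0.062 with the covariate. With 1 library left out, values ran from -0.15 to 0.24 for *Cd37*, -0.45 to 0.076 for *Cd53*, -1.46 to 0.39 for *Cd63*, -0.34 to 0.23 for *Cd82* and -0.15 to 0.34 for *Tspan14*. In stably over de novo expanded, *Cd9* turned to -0.041 with a pseudocount of 5, -0.49 with edgeR, -0.48 with DESeq2 and -0.090 with the covariate, and *Tspan2* to -0.14 with the covariate. With 1 library left out, values ran from -0.95 to 0.69 for *Cd9*, -0.45 to 0.081 for *Cd53*, -0.081 to 0.041 for *Cd151*, -0.29 to 0.47 for *Tspan2* and -0.00057 to 0.37 for *Tspan14*. None of these turned values was called, and the cause was not tested. Without a filter on low values the median of all genes shifted to -0.18, -0.31 and -0.05 in the comparisons of de novo with pre-malignant, stably expanded with pre-malignant and stably with de novo expanded libraries, respectively. No paired analysis was possible because the columns of the tables carry no clone or mouse. With 3 libraries a group, 1 mouse and 1 clone behind whole groups, and few reads of *Tspan13* and *Cd9*, small differences are beyond these data.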

Other observations

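Some values of related genes in the lists above were singled out after they were seen. *Tspan3* had 1 low library in each group, with 267 normalized counts in pre-malignant library 1, 263 in de novo expanded library 1 and 212 in stably expanded library 2, against 1003 to 1304 in the other 6 libraries. *Itgb7*, an integrin chain that pairs with the product of *Itga4*, had 3577 and 2746 normalized counts in de novo expanded libraries 1 and 2 and 299 in library 3, against 556 to 1079.8 in the other 6. As for *Cd9*, library 3 was thus below the other two of that group, whereas for *Cd63* it was above them. *Itga4* was at 6017, 6277 and 5474 normalized counts in de novo expanded libraries, above each pre-malignant library (4225 to 4602), without a call (log2 fold change 0.44; limma, adjusted p = 0.330). Between these groups, 19.1% of all tested genes did not overlap.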
